A study of Mus musculus with 8 samples.

Results

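The genes described here are 10 transcription factors that mark regions or lineages of the gastric and intestinal epithelium: Sox2, Gata4, Gata6, Foxa1, Foxa2, Foxa3, Hnf4a, Spdef, Pdx1 and Cdx1. They were taken by gene name from a table of 54532 genes, and all 10 were found. RNA was sequenced from the stomach corpus of 4 mutant mice (Six2-Cre+/- PKAcaR fl/wt) and 4 control mice (Six2-Cre+/- PKAcaR wt/wt). All 8 animals were of a mixed C57BL/6 and CD1 background, carried the Six2-Cre transgene and were untreated, and their age is not given in the sources used here. PKAcaR is an allele of Prkaca, the catalytic subunit alpha of protein kinase A, known from the literature to give, after recombination by Cre, a kinase that no longer needs cyclic AMP to be active. Cre is driven by the promoter of Six2, known as a mesenchymal transcription factor of the developing stomach and kidney, and which corpus cells recombined was not measured here.

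These factors are known to set where along the gut an epithelium belongs and which cells it makes. SOX2 is known as a foregut and stomach factor, GATA4 and GATA6 as partly redundant zinc finger factors of endoderm and its derivatives, and the FOXA proteins as pioneer factors that open chromatin in endoderm. HNF4A is a nuclear receptor of gastric, intestinal and hepatic epithelium, SPDEF an ETS factor of mucous secretory cells, PDX1 a homeodomain factor of antrum, duodenum and pancreas, and CDX1 a homeodomain factor of the intestine.

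Promoters of the members that carry the comparisons below are shown, since the allele acts on the cyclic AMP pathway. They are from RefSeq (GRCm38.p6), in which 8 of the 10 members were looked up. Of these 7 had entries, with 10 start sites, and Gata4 had none, and Gata6 and Cdx1 were not searched. Each runs 5′ to 3′ on the gene's own strand over 250 bases before the RefSeq start site and the 30 bases from it on. A searched motif is in capitals. RefSeq start sites can differ from the gene ends of the count table given below. The Sox2 window lies wholly before the gene as counted, and the Foxa1 window lies wholly inside it.
Spdef (chr17:27728922-27729201, minus strand): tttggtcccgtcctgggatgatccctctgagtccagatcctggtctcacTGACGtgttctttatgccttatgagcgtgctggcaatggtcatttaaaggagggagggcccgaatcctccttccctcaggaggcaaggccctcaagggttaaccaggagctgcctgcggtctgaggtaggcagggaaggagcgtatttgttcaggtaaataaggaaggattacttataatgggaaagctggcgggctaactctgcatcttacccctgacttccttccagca
Sox2 (chr3:34649745-34650024, plus strand): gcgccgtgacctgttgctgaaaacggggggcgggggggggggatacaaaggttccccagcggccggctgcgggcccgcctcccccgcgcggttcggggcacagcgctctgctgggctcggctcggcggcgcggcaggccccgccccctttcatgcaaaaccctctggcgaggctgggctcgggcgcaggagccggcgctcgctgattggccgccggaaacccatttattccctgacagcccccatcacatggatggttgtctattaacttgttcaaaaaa
Foxa1 (chr12:57546082-57546361, minus strand): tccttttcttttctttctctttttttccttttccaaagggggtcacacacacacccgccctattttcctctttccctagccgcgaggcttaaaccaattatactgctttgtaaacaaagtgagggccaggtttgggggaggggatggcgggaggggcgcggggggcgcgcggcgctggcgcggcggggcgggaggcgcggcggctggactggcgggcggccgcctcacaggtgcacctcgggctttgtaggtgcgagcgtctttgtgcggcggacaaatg
Foxa2 (chr2:148046940-148047219, minus strand): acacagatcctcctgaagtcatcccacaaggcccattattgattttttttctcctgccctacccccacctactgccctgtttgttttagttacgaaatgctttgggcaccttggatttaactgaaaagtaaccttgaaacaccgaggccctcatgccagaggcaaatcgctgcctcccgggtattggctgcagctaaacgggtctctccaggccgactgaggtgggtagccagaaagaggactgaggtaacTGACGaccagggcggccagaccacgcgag
Both strands were searched for the cyclic AMP response element TGACGTCA, for its 5-letter core TGACG, which lies within the longer motif, and for the GATA motif AGATAA. In 32851 mouse promoters of the same length these letters occur in 1.74%, 19.9% and 10.7%. TGACGTCA was in none of the 10 windows. TGACG began 201 bases before the start site of Spdef, with negative positions upstream (-201), and 1 base after the first Foxa2 start site, the one shown. AGATAA was found in a window of Hnf4a (-52) and in that of the third Foxa2 start site (-183), neither shown, and none of these letters was in the windows of Sox2, Foxa1, Foxa3 and Pdx1.

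Reads counted per library lay between 18184281 and 23814720 in mutants and between 18942308 and 22814152 in controls. Prkaca was at 36.8 to 40.7 CPM (read counts relative to the TMM-scaled size of each library) in mutants and 77.1 to 86.0 CPM in controls. Summed parietal cell markers lay at 235 to 3563 CPM in mutants and 16693 to 22838 CPM in controls, summed chief cell markers at 973 to 38865 and 260967 to 460484 CPM, and summed mucous neck markers at 9377 to 26841 and 2387 to 6203 CPM. Pit cell markers summed to 4327 to 34899 CPM in mutants and 42077 to 68341 CPM in controls, with 0 of 6 genes called. Summed smooth muscle markers lay at 250 to 812 CPM in mutants and 2759 to 3705 CPM in controls, with 8 of 8 genes lower, and 4 of 6 endocrine markers were lower. The part of these cell types in the members' values was not tested. Gast, the antral hormone gene gastrin, had no read in any of the 8 libraries. Mutant 2 stood apart: across genes its log2 CPM correlated at 0.839 to 0.881 with the other mutants, which correlated at 0.977 or more among themselves. Its 6 pan-epithelial markers summed to 1656 CPM, against 4392 to 5432 CPM in the other mutants and 3428 to 5518 CPM in controls, and its 5 leukocyte markers summed to 676 CPM, against 44.8 to 91.4 CPM in the other mutants and 37.7 to 42.8 CPM in controls, and 3 of these 5 genes were higher in mutants. Forestomach squamous markers summed to 637 CPM in mutant 3 and 239 CPM in control 3, and to at most 5.19 CPM elsewhere. In whole corpus, fewer cells of a type and less RNA per cell cannot be told apart.

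Among the 9 members with enough reads to test, Spdef and Sox2 were higher in mutants and no member was lower. That is 2 of 9 higher, where 9.39% of the 15862 tested genes were higher, and 0 of 9 lower, where 10.8% of all genes were (edgeR's quasi-likelihood test with p adjusted by Benjamini-Hochberg, threshold 0.05). Of the 9, Gata6 and Foxa2 had an unadjusted p under 0.05 in the lower direction (0.0441 and 0.0194), and DESeq2 called Foxa2 lower while limma-voom and both fits on FPKM called 0 lower. In either direction the called share of members was 22.2%, near the 20.2% of all genes. All 4 mutants lay above all 4 controls for Spdef alone, and below them for Gata4, Gata6 and Foxa2. That is 44.4% of the 9 members without overlap, where 30.3% of all tested genes had none (14.2% with every mutant above and 16.1% with every mutant below). The median log2 fold change, mutant over control, was 0.09 over the 9 members and 0.07 over all tested genes. Without mutant 2, which stood apart, 4 members were higher (Sox2, Spdef, Foxa1, Hnf4a) and 3 were lower (Gata4, Gata6, Foxa2), where 15.2% of the 16124 genes tested in that fit were higher and 18.3% lower. No member was higher when control 1, control 3, control 4 or mutant 4 was left out.

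**Figure D1:**
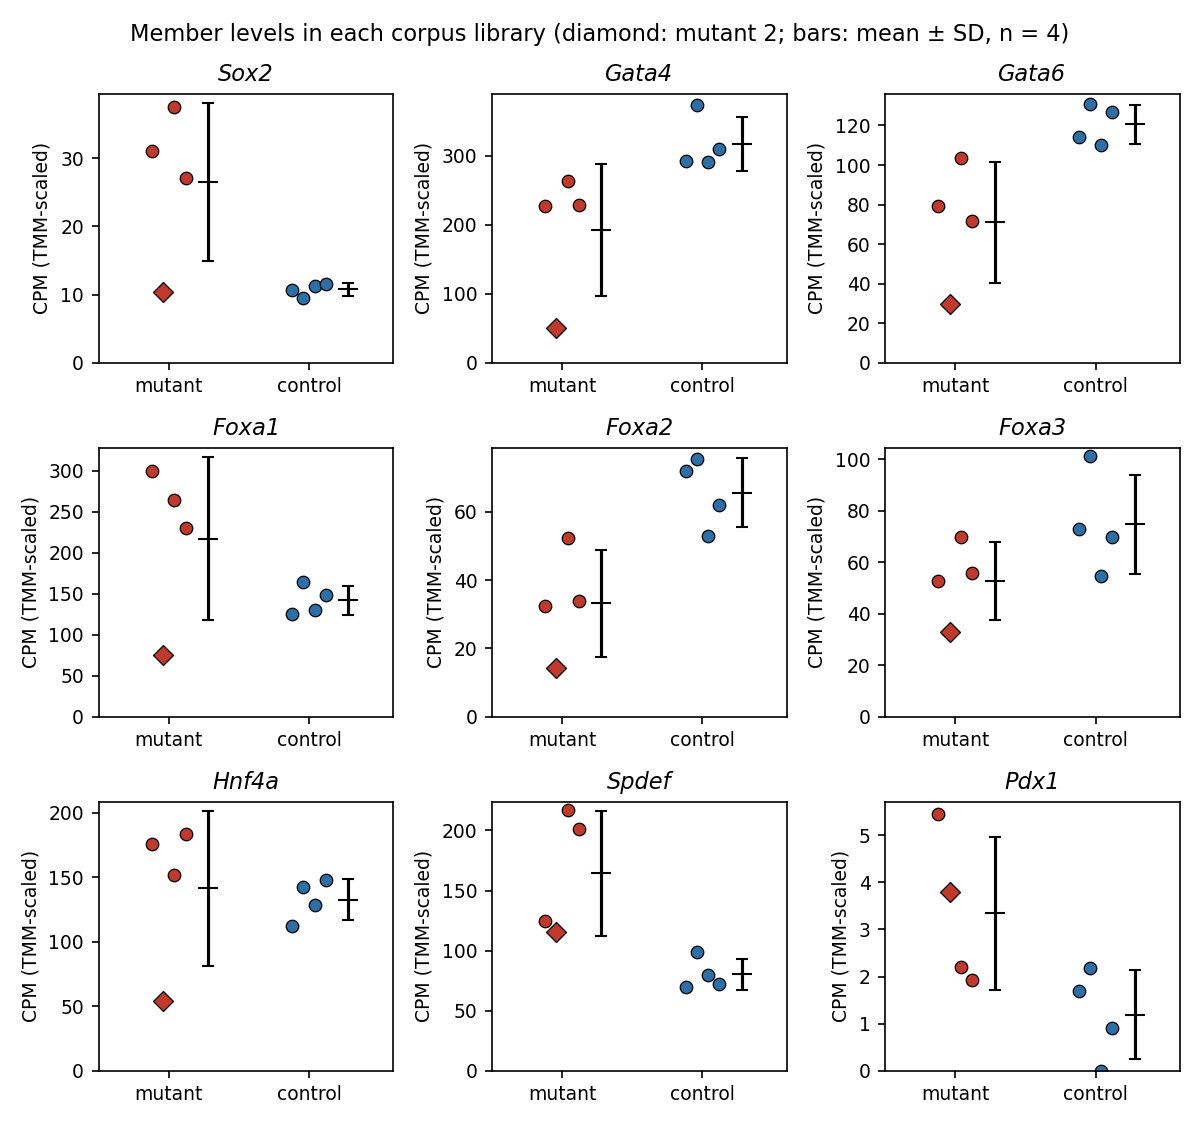
CPM of the 9 tested members in each of the 4 mutant and 4 control libraries, with the mean and SD of each group beside the points. For Sox2 the diamond of mutant 2 (10.3 CPM) lies within the controls while the other mutants lie above them, and for Spdef every mutant lies above every control.

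Sox2 (ENSMUSG00000074637, chromosome 3, 34650405 to 34652461, coordinates as in the count table) had 31.0, 10.3, 37.5 and 27.2 CPM in mutants 1 to 4, against 10.7, 9.49, 11.3 and 11.5 CPM in controls 1 to 4. Mutants 1, 3 and 4 were above every control, and mutant 2 lay among the controls. The mean was 26.5 ± 11.6 CPM in mutants and 10.8 ± 0.902 CPM in controls (SD, n = 4 each), a log2 fold change of 1.30 with a standard error (SE) of 0.35 and a 95% interval of 0.51 to 2.09 (edgeR adjusted p = 0.0333). Without mutant 2 it was 1.57 (SE 0.14, edgeR adjusted p = 2.38e-05). The call was lost when any other single library was left out (edgeR adjusted p between 0.0647 and 0.0886), and with both squamous-marker libraries left out the value was 1.11 (edgeR adjusted p = 0.137). With sizes set on pan-epithelial genes it was 1.10 (edgeR adjusted p = 0.0532), and limma-voom (adjusted p = 0.132) and both limma fits on FPKM (adjusted p = 0.0666 and 0.0631) did not call it either. Sox2ot, a long noncoding gene on the same strand whose span includes all 2057 bases of Sox2, had 20, 4, 29 and 18 reads in mutants and 6, 3, 6 and 9 in controls. This overlap is of gene spans, and exons were not compared.

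Spdef (ENSMUSG00000024215, chromosome 17, 27714352 to 27728955) had 125, 115, 217 and 201 CPM in mutants and 69.9, 98.9, 79.5 and 72.5 CPM in controls. The groups did not overlap, and mutant 2, at 115 CPM, was the lowest mutant. The mean was 164 ± 51.9 CPM in mutants and 80.2 ± 13.1 CPM in controls (SD, n = 4 each), a log2 fold change of 1.04 (SE 0.24, 95% interval 0.50 to 1.58, edgeR adjusted p = 0.0193). Without mutant 2 it was 1.17 (edgeR adjusted p = 0.00113). The call was lost without control 1, control 3, control 4 or mutant 4 (edgeR adjusted p = 0.0614, 0.0551, 0.0540 and 0.0545), and with both squamous-marker libraries left out (0.87, edgeR adjusted p = 0.0976). With sizes set on pan-epithelial genes the value was 0.98 (edgeR adjusted p = 0.0655).

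Gata4 (ENSMUSG00000021944, chromosome 14, 63198922 to 63271692) had 227, 50.7, 263 and 228 CPM in mutants and 293, 374, 290 and 310 CPM in controls. Every mutant was below every control, and mutant 2 was far below the other mutants. The mean was 192 ± 95.9 CPM in mutants and 317 ± 39.3 CPM in controls (SD, n = 4 each), with a log2 fold change of -0.72 (SE 0.43, 95% interval -1.71 to 0.27) that did not pass the test (edgeR adjusted p = 0.263). Without mutant 2 the difference was smaller and passed it, at -0.40 (SE 0.13, edgeR adjusted p = 0.0324). With column totals as library sizes it was -0.04 (edgeR adjusted p = 0.943), a scaling at which the median over all genes was 0.76, against 0.07 with TMM.

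Gata6 (ENSMUSG00000005836, chromosome 18, 11052508 to 11085635) had 79.2, 29.6, 103 and 71.4 CPM in mutants and 114, 131, 110 and 127 CPM in controls. These groups did not overlap either, and mutant 2 was again the lowest. The mean was 70.9 ± 30.7 CPM in mutants and 121 ± 9.88 CPM in controls (SD, n = 4 each), with a log2 fold change of -0.77 (SE 0.32, edgeR adjusted p = 0.127). Without mutant 2 it was -0.51 (SE 0.14, edgeR adjusted p = 0.0138), and with sizes set on pan-epithelial genes -0.94 (edgeR adjusted p = 0.0377). With column totals, where 9443 of all tested genes were higher, it was -0.08 (edgeR adjusted p = 0.828). The noncoding gene 1010001N08Rik overlaps 60 bases of Gata6 on the opposite strand, and its log2 fold change was -1.20 (SE 0.44, edgeR adjusted p = 0.0881).

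Within the GATA pair, where library scaling cancels, the make-up did not differ beyond the spread between libraries. Gata4 made up 80.4%, 71.0%, 78.5% and 82.1% of the summed FPKM of Gata4 and Gata6 in mutants, and 78.6%, 80.3%, 79.0% and 77.8% in controls. FPKM are read counts scaled by gene length and by library sizes of the authors, which are not the column totals. The mean share was 78.0 ± 4.87% in mutants and 78.9 ± 1.07% in controls (SD, n = 4 each), a difference of -0.948 percentage points (two-sided exact permutation test, p = 0.857, adjusted over 4 shares p = 0.857). Leaving out 1 library at a time gave differences between -2.31 and 1.37 percentage points.

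Foxa1 (ENSMUSG00000035451, chromosome 12, 57540628 to 57546916) had 299, 75.0, 265 and 230 CPM in mutants and 125, 164, 130 and 148 CPM in controls. Mutants 1, 3 and 4 were above every control and mutant 2 was below every control. The mean was 217 ± 99.0 CPM in mutants and 142 ± 17.9 CPM in controls (SD, n = 4 each), and the log2 fold change of 0.62 (SE 0.37, 95% interval -0.23 to 1.46) did not pass the test (edgeR adjusted p = 0.265). Without mutant 2 it was 0.90 (SE 0.13, edgeR adjusted p = 0.000463), and with column totals 1.30 (edgeR adjusted p = 0.0159). At that last scaling 9443 of all tested genes were higher, against 1489 with TMM.

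Foxa2 (ENSMUSG00000037025, chromosome 2, 148042877 to 148046969) had 32.3, 14.2, 52.3 and 33.7 CPM in mutants and 71.9, 75.4, 53.0 and 61.9 CPM in controls. Every mutant was below every control, with mutant 3 and control 3 nearly touching. The mean was 33.1 ± 15.5 CPM in mutants and 65.6 ± 10.2 CPM in controls (SD, n = 4 each), a log2 fold change of -0.98 (SE 0.34, edgeR adjusted p = 0.0744). It passed the test without mutant 2 (-0.73, SE 0.19, edgeR adjusted p = 0.0120), without mutant 3 (-1.29, edgeR adjusted p = 0.0283), in DESeq2 (-0.98, adjusted p = 0.0350) and with sizes set on pan-epithelial genes (-1.13, edgeR adjusted p = 0.0307). It did not pass with column totals (-0.31, edgeR adjusted p = 0.442), where 9443 of all tested genes were higher.

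Foxa3 (ENSMUSG00000040891, chromosome 7, 19013284 to 19023538) had 52.6, 32.8, 69.8 and 55.7 CPM in mutants and 73.0, 101, 54.6 and 69.9 CPM in controls. The groups overlapped, and the log2 fold change of -0.50 (SE 0.26, 95% interval -1.09 to 0.09) did not pass the test (edgeR adjusted p = 0.195). With mutant 2 left out and sizes set on pan-epithelial genes, a combination chosen after seeing the data, it was -0.67 and passed (edgeR adjusted p = 0.00615). In that fit 5462 genes were lower and 960 higher. With column totals, where 9443 of all tested genes were higher, it was 0.18 (edgeR adjusted p = 0.571).

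Within the FOXA group the share of Foxa1 was higher in every mutant than in any control, and that of Foxa2 was lower. Foxa1 made up 69.5%, 50.5%, 58.6% and 62.5% of the summed FOXA FPKM in mutants, against 36.2%, 37.7%, 44.3% and 42.4% in controls, so mutant 2, the lowest mutant, still lay above the highest control. The mean was 60.3 ± 7.94% in mutants and 40.2 ± 3.81% in controls (SD, n = 4 each), 20.1 percentage points apart (two-sided exact permutation test over 70 assignments, p = 0.0286, the smallest this design allows, and 0.0571 adjusted over the 4 shares examined). Foxa2 made up 10.5%, 13.4%, 16.2% and 12.8% in mutants and 29.2%, 24.3%, 25.3% and 24.9% in controls, a difference of -12.7 percentage points with no overlap (exact permutation p = 0.0286, adjusted p = 0.0571). Foxa3 made up 26.5 ± 6.82% in mutants and 33.9 ± 3.19% in controls (SD, n = 4 each), and of the mutants mutant 2 alone, at 36.1%, lay among the controls (exact permutation p = 0.114, adjusted p = 0.152). None of the 3 shares passed 0.05 after adjustment, which 70 assignments allow only where at least 3 of the 4 shares reach the smallest p. Without mutant 2 all 3 separated the groups, with differences of 23.3 for Foxa1, -12.7 for Foxa2 and -10.6 percentage points for Foxa3 (exact permutation p = 0.0286, adjusted p = 0.0381 each). Leaving out 1 library at a time kept the Foxa1 difference between 17.0 and 23.3 percentage points and the Foxa2 difference between -13.7 and -11.6.

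**Figure D2:**
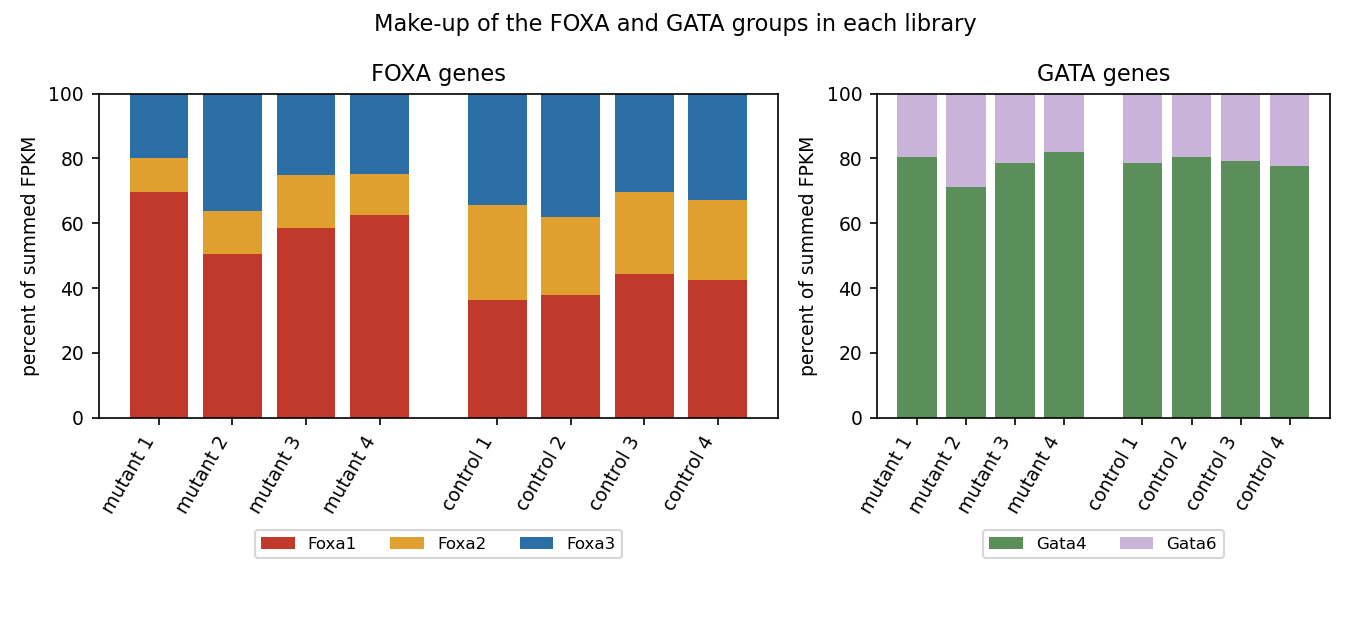
Percent of summed FPKM held by Foxa1, Foxa2 and Foxa3 (left) and by Gata4 and Gata6 (right) in each mutant and control library, 1 stacked bar per library. Foxa1 holds 50.5% to 69.5% in mutants and 36.2% to 44.3% in controls, whereas Gata4 holds 71.0% to 82.1% and 77.8% to 80.3%.

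Hnf4a (ENSMUSG00000017950, chromosome 2, 163506808 to 163572910) had 176, 53.8, 152 and 184 CPM in mutants and 112, 142, 128 and 148 CPM in controls. Mutants 1, 3 and 4 were above every control and mutant 2 was below every control. The means were 141 ± 59.9 CPM in mutants and 133 ± 16.0 CPM in controls (SD, n = 4 each), and the log2 fold change was 0.09 (SE 0.34, 95% interval -0.69 to 0.87, edgeR adjusted p = 0.866). Without mutant 2 it was 0.36 (SE 0.12, edgeR adjusted p = 0.0416), but -0.02 when sizes were also set on pan-epithelial genes.

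Pdx1 (ENSMUSG00000029644, chromosome 5, 147269959 to 147275848) was low, with 163, 93, 51 and 45 reads in mutants and 27, 33, 0 and 15 reads in controls. That is 5.44, 3.80, 2.20 and 1.93 CPM in mutants and 1.70, 2.17, 0 and 0.897 CPM in controls. Mutant 4 lay below control 2, and the log2 fold change of 1.49 (SE 0.86, 95% interval -0.48 to 3.46) did not pass the test (edgeR adjusted p = 0.245), nor did it under any alternative. Plut, a noncoding gene over 1563 bases of Pdx1 on the opposite strand, had more reads than Pdx1 in every library except control 3, where both had none: 249, 228, 92 and 65 in mutants and 102, 42, 0 and 31 in controls. Whether reads were counted by strand is not given in the sources used here. The overlap is of gene spans, exons were not compared, and reads of any shared exon bases may come from either gene.

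Cdx1 (ENSMUSG00000024619, chromosome 18, 61018862 to 61036199) had 0, 0, 2 and 1 reads in mutants and 0, 0, 2 and 0 reads in controls. No library exceeded a floor of 3 reads, on average 0.120 CPM in mutants and 0.189 CPM in controls, and Cdx1 was not tested. The reads in mutant 3 and control 3 came from the libraries with squamous markers.

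**Figure D3:**
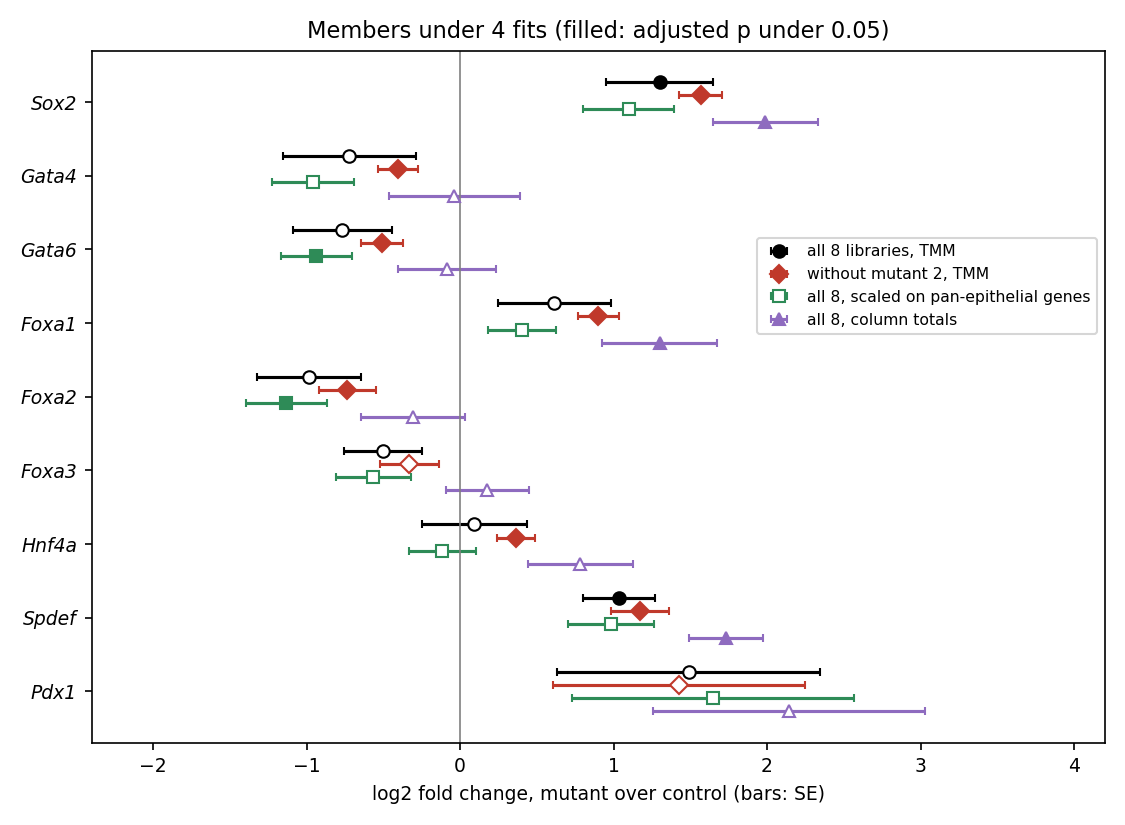
Log2 fold change, mutant over control, of the 9 tested members under 4 fits (bars: SE). Sox2, Foxa1, Spdef and Pdx1 lie above 0 and Gata4, Gata6 and Foxa2 below 0 in all 4, while Foxa3 and Hnf4a lie on both sides. Gata4, at -0.72 with all libraries, lies at -0.40 without mutant 2 and at -0.04 with column totals.

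Per kilobase, Spdef was the most abundant member in mutants, at 70.8 ± 22.4 FPKM, before Foxa1 (64.9 ± 29.6), Gata4 (48.9 ± 24.4), Hnf4a (29.1 ± 12.3), Foxa3 (25.7 ± 7.46), Foxa2 (13.9 ± 6.53), Sox2 (12.8 ± 5.61), Gata6 (12.6 ± 5.48) and Pdx1 (1.54 ± 0.749 FPKM). Each neighbour in that order overlapped the next over the 4 libraries, down to Gata6, and Pdx1 was separate from it. In controls Gata4 was the most abundant, at 80.4 ± 9.67 FPKM, with no library in the range of Foxa1 (42.3 ± 5.16). Foxa3 (36.3 ± 9.29), Spdef (34.5 ± 5.54), Foxa2 (27.4 ± 4.17), Hnf4a (27.2 ± 3.21) and Gata6 (21.4 ± 1.67) followed with overlapping neighbours, and Sox2 (5.18 ± 0.447) and Pdx1 (0.546 ± 0.437 FPKM) were each separate from the one before. These ranks describe the libraries and were not tested.

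The gene whose pattern over the 8 libraries was most like that of Sox2, among 14644 candidates, was Wnt4, a secreted Wnt ligand, with a mean absolute difference of 0.155 in centred log2 CPM and a log2 fold change of 1.37. For Spdef it was Gne, an enzyme of sialic acid synthesis, at 0.124 and with a log2 fold change of 0.96. Likeness to a gene that was called draws on the same group difference, so these are descriptions.

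Companion genes known to act with or downstream of the members were described as lists. Beside the list counts that follow, 9.39% of all tested genes were higher and 10.8% lower. Without mutant 2 these shares were 15.2% and 18.3%. The lists share some genes, among them Creb3l1, Creb3l4 and Nkx6-3, which are counted in each. Among 20 of 22 other regional and lineage factors tested, 6 were higher and 2 lower, with a median log2 fold change of 0.13 against 0.07 over all genes. Which cell types of the corpus express them was not measured. Ehf, an ETS factor of epithelium, averaged 125 ± 14.3 CPM in mutants and 36.1 ± 4.21 CPM in controls (SD, n = 4 each; log2 fold change 1.79, SE 0.13, edgeR adjusted p = 0.000536). Onecut2, a factor of liver and pancreas development, averaged 13.7 ± 3.47 CPM in mutants and 0.340 ± 0.270 CPM in controls (5.30, SE 0.68, edgeR adjusted p = 0.00231). Sox9, a factor of progenitor cells in several endodermal organs, averaged 157 ± 18.5 CPM in mutants and 75.7 ± 15.1 CPM in controls (1.05, SE 0.17, edgeR adjusted p = 0.00484). With sizes set on pan-epithelial genes Sox9 was at 1.14 and not called (edgeR adjusted p = 0.0827). The others higher were Creb3l4, Creb3l1 and Runx1, of which Runx1 lost its call on that scaling (1.21, edgeR adjusted p = 0.176). Runx1 was at 99.5 CPM in mutant 2, the library highest in leukocyte markers, and at 52.9 to 65.0 CPM in the other mutants. Without mutant 2 it was at 0.79 (edgeR adjusted p = 0.000645), and the part of leukocytes in its values was not tested. The 2 lower were Esrrg, a nuclear receptor also in the parietal list (17.4 ± 13.3 CPM in mutants and 163 ± 22.2 CPM in controls, -3.23, SE 0.86, edgeR adjusted p = 0.0329), and Nkx6-3. Esrrg lost its call without any one control, mutant 1 or mutant 4 (edgeR adjusted p between 0.0683 and 0.0830), and without mutant 2 the counts were 10 higher and 4 lower. Cdx2, the other intestinal CDX factor, had no read in any library.

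Of the SPDEF-linked mucous secretory genes 11 of 12 were tested, 7 were higher and 0 lower, with a median log2 fold change of 1.28. Muc2 and Muc5ac had negative log2 fold changes that did not pass the test (edgeR adjusted p = 0.0571 and 0.126, and 0.0125 and 0.0440 before adjustment), and DESeq2 called 2 genes of the list lower. Fcgbp, a mucus-binding protein, averaged 53.7 ± 50.7 CPM in mutants and 1.35 ± 0.607 CPM in controls (5.31, SE 0.71, edgeR adjusted p = 0.00277). Mutant 1 was highest, at 129 CPM against 24.6 to 34.8 CPM in the other mutants, and without it the log2 fold change was 4.39 (edgeR adjusted p = 0.00210). Creb3l4, a membrane-bound bZIP factor, averaged 97.3 ± 29.2 CPM in mutants and 39.8 ± 7.12 CPM in controls (1.29, SE 0.24, edgeR adjusted p = 0.00952). Muc6, the gland mucin, averaged 10690 ± 5242 CPM in mutants and 1735 ± 755 CPM in controls (2.62, SE 0.52, edgeR adjusted p = 0.0112). Agr2, Creb3l1, Ern2 and Tff2 made up the other called genes, and Muc6 and Tff2 are also in the mucous neck list, in which 5 of 5 genes were higher, a cell type whose part in the result was not tested. The count was 8 higher and 2 lower without mutant 2, 3 higher without control 1, and 1 higher, Fcgbp, with both squamous-marker libraries left out.

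**Figure D4:**
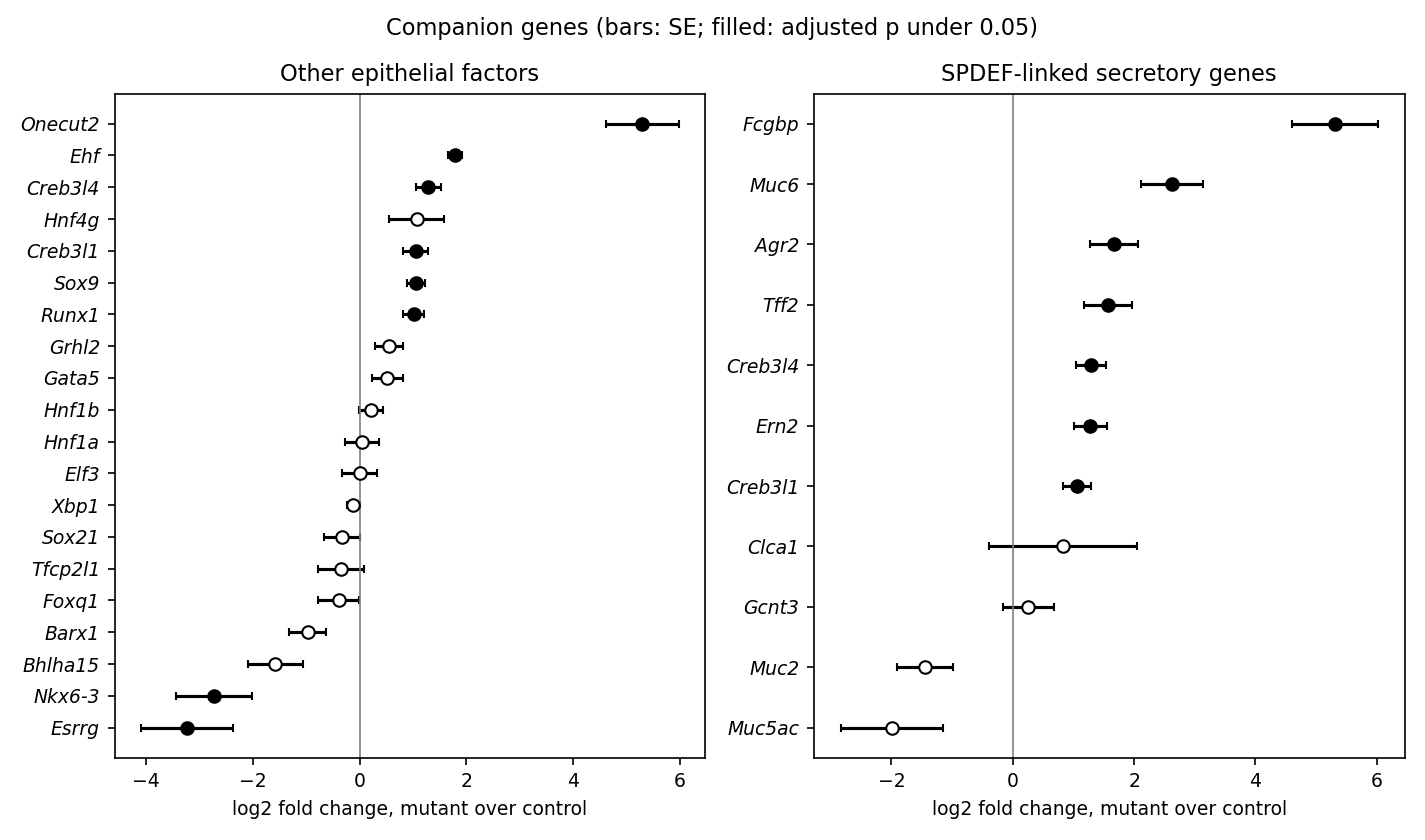
Log2 fold change, mutant over control, of the tested other regional and lineage factors (left) and SPDEF-linked secretory genes (right), with SE as bars and filled points for adjusted p under 0.05. Onecut2 at 5.30 and Fcgbp at 5.31 have the highest values of their lists, and Esrrg at -3.23 and Muc5ac, which did not pass the test, the lowest.

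HNF4A-linked lipid and plasma protein genes had 2 of 8 tested genes lower and 0 higher, with a median of -1.35, in libraries where Hnf4a itself was not called. No gene of the list was higher at an unadjusted edgeR p under 0.05, in DESeq2 or in limma-voom. Mttp had every mutant above every control without passing the test (0.48, SE 0.22, edgeR adjusted p = 0.153). It passed with column totals (1.18, edgeR adjusted p = 0.00284), where 9443 of all tested genes were higher. Apoa4, an apolipoprotein, averaged 2.38 ± 2.32 CPM in mutants and 44.8 ± 5.55 CPM in controls (-4.24, SE 0.89, edgeR adjusted p = 0.0143), and was at -4.94 without mutant 3. Apoa1, another, averaged 136 ± 126 CPM in mutants and 1911 ± 373 CPM in controls (-3.82, SE 1.11, edgeR adjusted p = 0.0448), a call lost without any one control, mutant 1 or mutant 4 (edgeR adjusted p between 0.0821 and 0.101), and was at -4.57 without mutant 3. Ttr, transthyretin, did not pass the test (-2.30, SE 0.91, edgeR adjusted p = 0.107) but did without mutant 2 (-1.89, edgeR adjusted p = 0.0111). Without mutant 2 the list had 1 gene higher and 4 lower.

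CDX-linked intestinal genes gave 5 of 12 genes with enough reads to test, of which 2 were higher and 1 was lower (median -1.45). Vil1, villin of microvilli, averaged 137 ± 50.4 CPM in mutants and 36.8 ± 5.62 CPM in controls (1.90, SE 0.27, edgeR adjusted p = 0.00325). Lgals4, an intestinal and gastric lectin, was at 1.42 (SE 0.41, edgeR adjusted p = 0.0431) and lost its call without any one library except mutant 2. Tff3, the goblet cell trefoil factor, was lower at 0.383 ± 0.324 CPM in mutants and 2.46 ± 0.980 CPM in controls (SD, n = 4 each; -2.66, SE 0.68, edgeR adjusted p = 0.0285), and lost its call without any one control, mutant 1 or mutant 4. Sis, the intestinal sucrase gene, had no read in any library, and Isx had 25 reads in mutant 2 and none elsewhere.

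The list of antral genes, set beside Pdx1, had 2 of 4 tested genes lower and 0 higher (median -0.99), and DESeq2 and limma-voom called 0 higher as well. In these libraries 4 of 6 endocrine and 8 of 8 smooth muscle markers were lower. The part of those cell types in this list was not tested. Isl1, a LIM homeodomain factor, averaged 22.1 ± 3.52 CPM in mutants and 34.9 ± 2.76 CPM in controls (-0.66, SE 0.13, edgeR adjusted p = 0.0121), and was not called with column totals (0.04) or with sizes set on pan-epithelial genes (-0.62, edgeR adjusted p = 0.386). Nkx6-3, an antral homeodomain factor, averaged 0.395 ± 0.0726 CPM in mutants and 2.64 ± 2.27 CPM in controls (-2.72, SE 0.71, edgeR adjusted p = 0.0305), a call lost without control 1, control 2, mutant 1, mutant 3 or mutant 4 (edgeR adjusted p between 0.0564 and 0.0825) and at -2.11 without control 1. Lgr5, the stem cell receptor, was at 0.60 (SE 0.25, edgeR adjusted p = 0.122, and 0.0416 before adjustment). Of the fits that left out 1 library it passed the test without mutant 3 (0.77, edgeR adjusted p = 0.0441). It passed with column totals (1.30, edgeR adjusted p = 0.00499), where 9443 of all tested genes were higher.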

How the data were processed

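Per the labels' protocols, whole stomach corpus of 4 mutant and 4 control mice was stored in RNAlater, RNA was extracted with Trizol, and polyA libraries came from a NEBNext Ultra kit. Each library is 1 animal per the design text. The authors deposited unnormalized counts of reads per gene and, in a second table, FPKM. In the tested members these FPKM kept a nearly constant ratio to TMM-scaled CPM over the libraries. Fits on FPKM are therefore not a separate scaling. The submitters' processing notes list CASAVA, fastp, STAR 2.5 and featureCounts with no role for any. Build and strand setting: not given in the sources used here. Coordinates are those of the count table, and 9 of 10 members have the same ones in GENCODE M21 (GRCm38), Gata6 being the exception. A control column named SCI was taken as SC1.

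Genes kept by filterByExpr were TMM-scaled and tested, mutant over control, with the robust quasi-likelihood test of edgeR 4.0.16 (R 4.3.3), adjusted by Benjamini-Hochberg over 15862 genes at a threshold of 0.05. SE is the coefficient over the square root of F. Shares were compared by exact permutation of the deposited FPKM. Every pair of libraries within a group differed beyond sampling noise (chi-square per degree of freedom 14.8 or more). A floor of 3 counts was on average 0.120 CPM in mutants and 0.189 CPM in controls, covering counting error only.

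Alternatives were DESeq2 1.42.0, limma-voom, limma-trend with FPKM on a log2 scale (pseudocount 1 or 0.1) at a mean FPKM of at least 0.5 (limma 3.58.1), RLE factors, column totals, sizes set on 6 pan-epithelial genes, other low-count filters, a block for replicate number, leaving out each library, and control 3 with mutant 3 left out. The last was planned from an earlier account of these libraries. Leaving out mutant 2 with other scalings was chosen after seeing the data. The edgeR test was run on simulated counts with no outlying library, and the permutation test on a small set of values with a known answer. These checks do not cover a library like mutant 2. Members, lists and tests were chosen with earlier results of these data known. Named were all members, the 3 smallest p of each companion list plus the largest change in its rarer direction, and the nearest pattern of each called member (mean CPM at least 1, log2(CPM + 0.5)). Other called list genes, Muc2, Muc5ac, Mttp, Pgc, genes without reads and Isx were named after their values were seen.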

Additional observations from a re-analysis of the deposited data

How the results depend on the processing

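Over 21 alternatives no called member changed sign, and of the called companion genes named here Isl1 did, at 0.04 with column totals and -0.66 in the main analysis. Genes higher, 1489 in the main analysis, were 9443 with column totals, 349 scaled on pan-epithelial genes, 747 with the replicate block, 587 without control 3 and mutant 3 together, 2407 in DESeq2, and, with mutant 2 left out, 960 on pan-epithelial scaling and 10348 on column totals. Genes lower, 1719, were 722, 918, 1077 and 823 in the first 4 of these, and 5462 and 1132 in the last 2. Members higher, 2, were 0 on pan-epithelial scaling, with the block and without control 3 and mutant 3, and 1 in limma-voom and in both FPKM fits. With mutant 2 left out on column totals 4 of the 9 tested members were higher, where 10348 of 16124 genes were. Members lower, 0, were 2 on pan-epithelial scaling, where 918 of 15862 genes were, and 1 in DESeq2, where 2503 genes were. Pan-epithelial scaling with mutant 2 left out gave 4 of the 9 tested members lower, where 5462 of 16124 genes were. Companion genes higher, 13, were 20 with column totals, 6 with the block, 6 without control 3 and mutant 3, and 26 with mutant 2 left out on column totals. Companion genes lower, 6, were 3 without control 3 and mutant 3, 16 with mutant 2 left out on pan-epithelial scaling, and 12 in DESeq2. Leaving out each library gave 665 to 2447 genes higher, 1018 to 2953 lower, 0 to 4 members higher, 0 to 3 lower, 8 to 18 companions higher and 2 to 13 lower, with fewer samples in each fit. Of 10 alternatives for each share, none changed a call except leaving out mutant 2, where all 3 FOXA shares passed (exact permutation, adjusted p = 0.0381 each). Those 3 shares make up the whole in each library and are not separate results. A call needs at least 3 shares at the smallest p. With control 3 and mutant 3 left out the smallest p possible was 0.1 (exact permutation), so no call could be made. Unchanged calls therefore say little about stability. Leaving out each library gave differences of 17.0 to 23.3 percentage points for Foxa1, -13.7 to -11.6 for Foxa2, -10.6 to -5.22 for Foxa3 and -2.31 to 1.37 for Gata4. The cause of the other shifts was not tested.

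Replicate numbers did not pair the libraries: same-numbered deviations correlated at 0.0580, -0.0909, 0.0624 and 0.00346, and number 3 alone correlated best with its own. With the replicate block Sox2 was at 1.17 (edgeR adjusted p = 0.0665) and Spdef at 1.00 (edgeR adjusted p = 0.0655), neither past the threshold. Spdef was called by limma-voom and both FPKM fits. Cdx1, with at most 2 reads a library, could not be tested, and the SE of Pdx1 was 0.86, and 0.50 without control 3, which had no read.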
